A study of Arabidopsis thaliana with 8 samples.

Results

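RCA, PRK and SBPASE are 3 nuclear genes of the Calvin cycle, followed here across 8 Affymetrix ATH1 arrays of Arabidopsis thaliana rosette leaf RNA. They were chosen by locus: RCA is AT2G39730, PRK is AT1G32060 and SBPASE is AT3G55800. Each had 1 probe set, so 3 of the 22810 probe sets on the array were followed, and all 3 passed the filter on low signals that left 15523 tested probe sets. The arrays formed 4 groups of 2 biological replicates, without a label saying which plants went into each RNA. The dor drought and dor control groups carried a SALK T-DNA insertion (Salk-050074) in the Columbia background, and the WT drought and WT control groups were Columbia wild type. Drought plants were watered for 24 days and then received no irrigation for 10 days, and control plants were watered for 34 days. All plants grew in soil at 22 °C with 16 h of light and 8 h of darkness. The mutant is 1 insertion line, so the insertion cannot be told apart from any other difference of that line.

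The Calvin cycle fixes carbon dioxide in the chloroplast stroma through Rubisco, which joins it to ribulose-1,5-bisphosphate, and then rebuilds that acceptor. Rubisco activase, encoded by RCA, uses ATP to pull inhibitory sugar phosphates out of Rubisco's active sites. Sedoheptulose-1,7-bisphosphatase, encoded by SBPASE, removes a phosphate in the regeneration branch, and phosphoribulokinase, encoded by PRK, uses ATP to make ribulose-1,5-bisphosphate. SBPASE and PRK are switched on in the light by thioredoxins, and PRK is held inactive in a complex with GAPDH and CP12 in the dark. Transcripts of photosynthetic genes are known to be lowered in leaves that dry out or age.

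Values are the authors' linear MAS5 signal intensities, which were scaled so that the trimmed mean of each array lay at 500 to 500.1. RNA extraction was worded as RNAplant and RNeasy for the dor arrays of replicate 1 and the WT arrays of replicate 2. It was worded as RNeasy alone for the WT arrays of replicate 1 and the dor arrays of replicate 2. Replicate 1 arrays had median signals of 97.4 to 120.5, and replicate 2 arrays had 163 to 171. Spiked poly-A control RNAs read 337 to 447 (geometric mean) in replicate 1 and 16.3 to 104 in replicate 2. The ratio of middle to 3' probe sets of ubiquitin was 0.430 to 0.632 on drought arrays and 0.174 to 0.405 on control arrays. The probe set of DOR, the mutated gene, read 2.3 to 21.4 over the 8 arrays and never reached the 40th percentile of an array, so it gives no check of the genotype labels. Of the leaf markers, all 7 tested photosystem and antenna genes were above that percentile on all 8 arrays, while PYK10, a root myrosinase, was above it on 3 arrays.

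RCA gave signals of 9383 and 26561 in dor drought leaves (replicates 1 and 2), against 31029 and 35723 in dor control leaves. In wild type it gave 31878 and 27883 in WT drought leaves and 36420.0 and 21538 in WT control leaves. The dor groups did not overlap, the WT groups did, and 1 dor drought array lay far below the other 7. RCA ranked between the 98.8th and the 99.96th percentile of its array throughout, and its highest signal was 3.88 times its lowest. The RefSeq gene table lists 3 transcripts of RCA and 1 each of PRK and SBPASE, and the tables do not say which RCA transcripts the probe set reads.

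SBPASE gave 687 and 4807 in dor drought leaves, against 18823 and 10494 in dor control leaves. Its signals in wild type were 4538 and 9913 in WT drought leaves and 18265 and 8864 in WT control leaves. Again the dor groups stood apart, while the higher WT drought array lay above the lower WT control array. The gene spanned the 78.7th to the 99.3rd percentile of its array, and its highest signal was 27.4 times its lowest.

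PRK gave 1728 and 9087 in dor drought leaves, against 26539.5 and 17229 in dor control leaves. Wild type read 18067 and 14498 in WT drought leaves and 22154 and 16774 in WT control leaves. Both dor drought arrays of PRK lay below all 6 other arrays, a pattern that 7.83% of the tested probe sets showed and that neither RCA nor SBPASE did. PRK lay between the 90.3rd and the 99.6th percentile of its array, and its highest signal was 15.4 times its lowest. On the dor drought array of replicate 1 all 3 genes had their lowest signal of the 8 arrays, as did 20.7% of the tested probe sets.

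**Figure D1:**
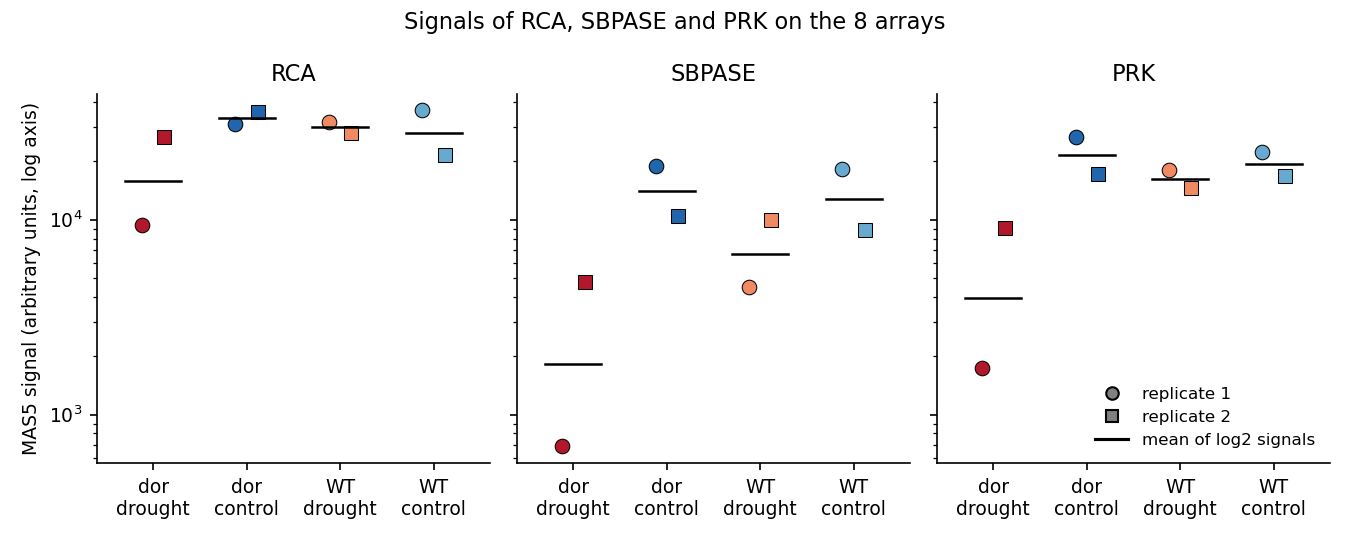
Signal intensity (log axis, authors' MAS5 units) of RCA, SBPASE and PRK on each of the 8 arrays, by group and replicate. The lowest point of every panel is dor drought replicate 1, at 9383 for RCA, 687 for SBPASE and 1728 for PRK; heights are not to be compared between genes, since each is read by its own probe set.

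The first comparison asks how the genes differed between droughted and watered dor leaves. The mean log2 signal of RCA was 13.95 ± 1.06 in dor drought and 15.02 ± 0.14 in dor control leaves (SD, n = 2 each). SBPASE averaged 10.83 ± 1.98 in dor drought and 13.78 ± 0.60 in dor control leaves, and PRK 11.95 ± 1.69 in dor drought and 14.38 ± 0.44 in dor control leaves. All 3 were lower in both dor drought arrays than in both dor control arrays, which 22.9% of the tested probe sets also were. None of the 3 passed limma's test at an adjusted p of 0.05, while 88 probe sets did, 0.567% of those tested, with 0.251% called lower.

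The log2 difference of dor drought minus dor control was -1.08 for RCA (SE 0.58, 95% interval -2.40 to 0.25, limma adjusted p = 0.414). It was -2.95 for SBPASE (SE 0.92, interval -5.06 to -0.84, limma adjusted p = 0.198) and -2.43 for PRK (SE 0.75, interval -4.14 to -0.72, limma adjusted p = 0.192). The intervals of SBPASE and PRK, which are not adjusted over probe sets, leave out 0, as did those of 2433 tested probe sets. Among all tested probe sets, 3.62% had a difference as low as that of SBPASE, 5.71% one as low as PRK's and 18.4% one as low as RCA's, around a median of 0.17. Fewer cells that express a gene and less of its RNA per cell cannot be told apart in whole leaf RNA.

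The size of this difference rested largely on the dor drought array of replicate 1. Arrays of the same number are set side by side here as a description, since the numbers were not taken as pairs. In replicate 1 the dor drought signal was 27.4-fold lower than the dor control signal for SBPASE, 15.4-fold lower for PRK and 3.31-fold lower for RCA. In replicate 2 it was 2.18-fold lower for SBPASE, 1.90-fold lower for PRK and 1.34-fold lower for RCA. Without the dor drought array of replicate 1 the log2 differences were -1.55 for SBPASE, -1.23 for PRK and -0.33 for RCA. Without that of replicate 2 they were -4.35 for SBPASE (limma adjusted p = 0.0689), -3.63 for PRK (limma adjusted p = 0.0548) and -1.83 for RCA (limma adjusted p = 0.203). The dor drought array of replicate 1 also had the lowest ratio of 5' to 3' actin signal, 0.0549, on a range up to 0.116. Its 5' to 3' ratio of GAPDH was not low, 0.684 on a range of 0.442 to 0.776. Its ratio of middle to 3' ubiquitin was 0.430, on a range of 0.174 to 0.632. The part of RNA quality in these values was not tested.

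In wild type the same question gave smaller values and overlapping groups for all 3 genes. RCA averaged 14.86 ± 0.14 in WT drought and 14.77 ± 0.54 in WT control leaves on the log2 scale, a difference of 0.090 (SE 0.58, 95% interval -1.24 to 1.42, limma adjusted p = 0.966). PRK averaged 13.98 ± 0.22 in WT drought and 14.23 ± 0.28 in WT control leaves, a difference of -0.25 (SE 0.75, interval -1.97 to 1.46, limma adjusted p = 0.923). SBPASE averaged 12.71 ± 0.80 in WT drought and 13.64 ± 0.74 in WT control leaves, a difference of -0.92 (SE 0.92, interval -3.03 to 1.18, limma adjusted p = 0.744). These intervals still hold falls of over 1 log2 unit for each gene. The 4 groups shared 1 estimate of the spread, so the width of these intervals also reflects the spread of the dor arrays. With only the 4 WT arrays compared, the SE was 0.53 for RCA, 0.53 for PRK and 0.67 for SBPASE. Leaving out 1 array moved the SBPASE difference between -1.49 (without WT drought replicate 2) and -0.36 (without WT drought replicate 1). Only 1 probe set was called in this comparison, 0.00644% of those tested, with 1482 at an unadjusted limma p under 0.05, and 18.8% of probe sets had both WT drought arrays below both WT control arrays.

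Over both genotypes, in a model of condition and genotype, the drought difference was -1.94 for SBPASE (SE 0.70, limma adjusted p = 0.119), -1.34 for PRK (SE 0.62, limma adjusted p = 0.194) and -0.49 for RCA (SE 0.43, limma adjusted p = 0.478). None of the 3 was called, against 5.81% of the tested probe sets, of which 2.97% were called lower. Without the dor drought array of replicate 1 the differences were -1.17 for SBPASE, -0.65 for PRK and -0.076 for RCA, and without WT control replicate 2 that of RCA was -0.76. The 4 drought arrays overlapped the 4 control arrays for each gene, while 9.41% of probe sets lay lower without overlap. Arrays of the same condition and replicate number tended to deviate together over all probe sets. When each set of arrays that share condition and replicate number was made a random block, the SE was 1.00 for SBPASE, 1.07 for PRK and 0.74 for RCA, with limma adjusted p of 0.412, 0.581 and 0.784.

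**Figure D2:**
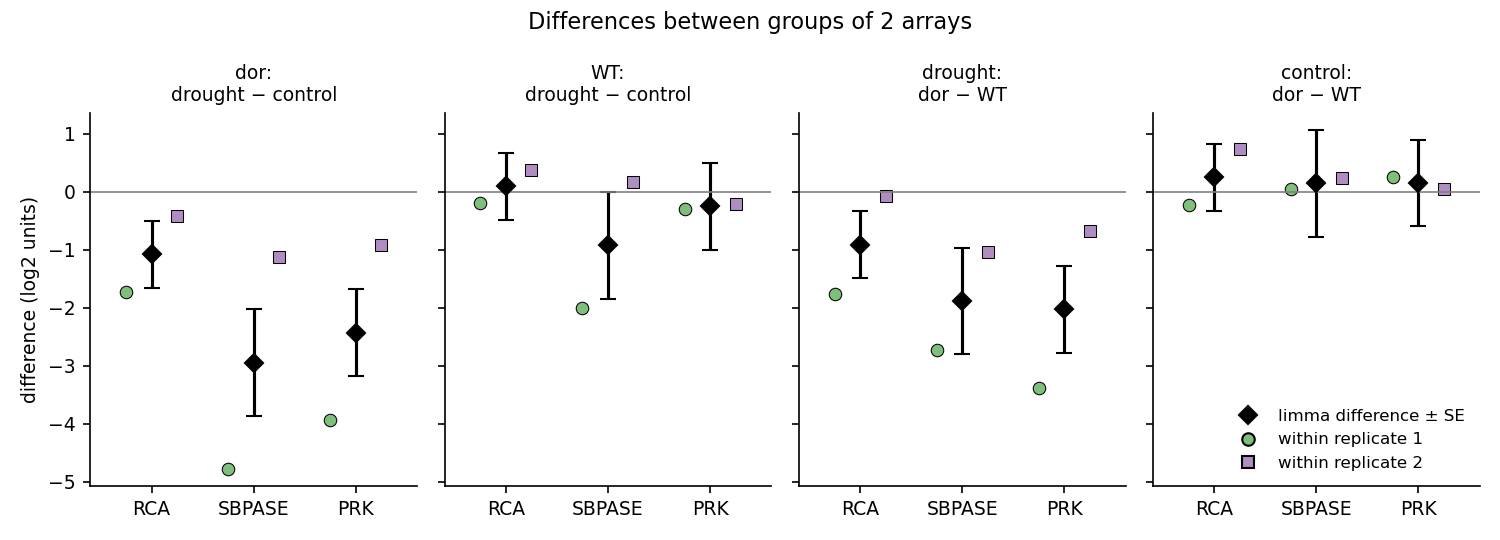
Log2 differences of RCA, SBPASE and PRK between groups of 2 arrays: diamonds are limma's difference with its SE as bars, circles the value within replicate 1 and squares that within replicate 2. For drought in dor the replicate 1 values of SBPASE (-4.78) and PRK (-3.94) lie far below those of replicate 2 (-1.13 for SBPASE and -0.92 for PRK).

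The genotypes were also compared within each watering regime. Under control watering the dor minus WT log2 difference was 0.25 for RCA (SE 0.58), 0.15 for PRK (SE 0.75) and 0.14 for SBPASE (SE 0.92), with limma adjusted p of 1.00 for each. The groups overlapped for all 3, while 7.47% of tested probe sets lay lower and 7.57% higher in dor control than in WT control without overlap. Limma called 0 of the tested probe sets here (0.0%), and 71 had an unadjusted p under 0.05.

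Under drought the dor minus WT difference was -2.03 for PRK (SE 0.75, 95% interval -3.74 to -0.32), -1.88 for SBPASE (SE 0.92, interval -3.99 to 0.22) and -0.92 for RCA (SE 0.58, interval -2.24 to 0.41). Each had a limma adjusted p of 1.00, and of the unadjusted intervals only PRK's leaves out 0. Both dor drought arrays were below both WT drought arrays for PRK and RCA, as for 15.1% of tested probe sets, and the groups overlapped for SBPASE. Between the arrays numbered 1, dor drought minus WT drought was -3.39 for PRK, -2.72 for SBPASE and -1.76 for RCA. Between those numbered 2 it was -0.67 for PRK, -1.04 for SBPASE and -0.070 for RCA. Arrays of the same number also differed in extraction wording between the genotypes, so genotype and wording cannot be told apart in these values. Without the dor drought array of replicate 1 the differences were -0.83 for PRK, -0.48 for SBPASE and -0.17 for RCA. Without that of replicate 2 they were -3.23 for PRK, -3.29 for SBPASE and -1.67 for RCA. Limma called 0 of the tested probe sets (0.0%), with 492 at an unadjusted p under 0.05.

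Whether the drought response itself differed was tested as the dor response minus the WT response. It was -2.18 for PRK (SE 1.06, 95% interval -4.60 to 0.24), -2.03 for SBPASE (SE 1.30, interval -5.01 to 0.95) and -1.17 for RCA (SE 0.82, interval -3.04 to 0.71). Limma's adjusted p was 1.00 for each, and 0 probe sets were called (0.0%), with 185 at an unadjusted p under 0.05. Without the dor drought array of replicate 1 it was -0.98 for PRK, -0.62 for SBPASE and -0.42 for RCA. Without that of replicate 2 it was -3.38 for PRK, -3.43 for SBPASE and -1.92 for RCA. The intervals hold 0 as well as a dor response more than 3 log2 units below that of WT for each gene.

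The 3 genes were then compared with each other over the 8 arrays, after each was centred on its own mean log2 signal. PRK and SBPASE were closest, with a root-mean-square difference of 0.51 log2 units, against 0.66 for RCA and PRK and 0.96 for RCA and SBPASE. Part of this distance lay in WT drought replicate 1, whose difference from WT control replicate 1 was -2.01 for SBPASE, -0.29 for PRK and -0.19 for RCA. Another part lay between replicates of the watered leaves. Replicate 2 minus replicate 1 was -0.84 for SBPASE, -0.62 for PRK and 0.20 for RCA in dor control leaves, and -1.04 for SBPASE, -0.40 for PRK and -0.76 for RCA in WT control leaves. Higher signals in replicate 1 than in replicate 2 in the controls of both genotypes were thus seen for PRK and SBPASE and not for RCA, and 26.3% of tested probe sets showed them. In dor drought leaves it was 2.81 for SBPASE, 2.39 for PRK and 1.50 for RCA, the widest spread of the 4 groups for each gene.

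The rest of the pathway was read from lists written by locus, of which few loci have a named probe set here. Of 21 loci of Calvin cycle enzymes only PRK, SBPASE and AT1G56190 had a named probe set. AT1G56190 gave 470 and 693 in dor drought leaves, against 7569 and 4360.0 in dor control leaves. It gave 808 and 1869 in WT drought leaves, against 6653 and 4652 in WT control leaves. Unlike the SBPASE, PRK and RCA values, its signals were lower without overlap in both genotypes and over all 4 drought against all 4 control arrays. Of all tested probe sets, 22.9% were lower without overlap in dor, 18.8% in WT and 9.41% over the 4 against 4 arrays. Over both genotypes AT1G56190 fell by 2.76 log2 units (SE 0.44, limma adjusted p = 0.0147). The call was lost with the random block (limma adjusted p = 0.155), without dor drought replicate 1 (-2.53, limma adjusted p = 0.0512) and without both control arrays of replicate 1 (-2.43, limma adjusted p = 0.122). Its own drought differences were -3.33 in dor (limma adjusted p = 0.0663) and -2.18 in WT (limma adjusted p = 0.375).

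The list of Rubisco activation and assembly holds the activase and chaperones that fold and join Rubisco's subunits, but not every listed gene is either. Of 15 listed loci 8 were tested, RCA among them. Without RCA, all 7 had a negative drought difference in dor (median -1.72) and all 7 in WT (median -1.52), against a median of 0.17 in dor and 0.16 in WT over all tested probe sets. In dor 4 of the 7 were lower without overlap (22.9% of all tested probe sets), and in WT 5 of the 7 were (18.8% of all tested). AT3G48420 fell by 2.37 log2 units over both genotypes (limma adjusted p = 0.0354, and 0.181 with the random block). Its call was also lost without any one of dor drought replicate 1 or 2, dor control replicate 1, WT drought replicate 1 and WT control replicate 1 (-2.58 to -1.96, limma adjusted p of 0.0635 to 0.111). AT3G47650 (-2.17, limma adjusted p = 0.0518) and AT5G51110 (-1.75, limma adjusted p = 0.0645) missed the threshold over both genotypes. In dor their differences were -2.30 and -2.33, and in WT -2.04 and -1.16. Cpn60beta2, a subunit of the chloroplast chaperonin, differed by -1.72 in dor and -0.68 in WT, and LSMT-L, a chloroplast lysine methyltransferase, by -0.85 in dor and -0.70 in WT. AT5G28500 (-1.46 in dor, -1.52 in WT) and AT3G04550 (-1.32 in dor, -2.72 in WT) overlapped in dor but not in WT.

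Redox regulators of the cycle were listed as thioredoxins of several types, of which only some reduce SBPASE and PRK, with the reductases that feed thioredoxins. Of 16 listed loci 7 were tested, and 6 of the 7 had negative drought differences in each genotype. The median was -1.24 in dor and -1.09 in WT, against 0.17 in dor and 0.16 in WT over all tested probe sets. ty2, a y-type thioredoxin, fell by 1.98 log2 units over both genotypes (limma adjusted p = 0.0336, and 0.208 with the random block), with -1.67 in dor and -2.30 in WT. Its call was also lost without any one of the 4 drought arrays or the 2 control arrays of replicate 1 (-2.10 to -1.75, limma adjusted p of 0.0571 to 0.108). TRXF2, an f-type thioredoxin, the kind best known for reducing the cycle's bisphosphatases, differed by -1.80 in dor and -1.09 in WT (limma adjusted p = 0.267 and 0.628). THX, an x-type thioredoxin, differed by -1.24 in dor and -1.14 in WT, and ATHM2, an m-type one, by -0.92 in dor and -0.65 in WT. NTRC, a reductase joined to its own thioredoxin domain, differed by -1.24 in dor and -1.27 in WT, and AT2G04700 by -0.77 in dor and -0.99 in WT. TY1, the other y-type thioredoxin, was the one with a positive difference, 0.42 in dor and 0.83 in WT.

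Over these 3 lists without RCA, SBPASE and PRK, 15 genes were tested and 14 had a negative drought difference in each genotype. The median of the 15 was -1.46 in dor and -1.16 in WT, against 0.17 and 0.16 over all tested probe sets. Of the 15, 10 were lower without overlap in dor (22.9% of all tested probe sets) and 12 in WT (18.8% of all tested). None of the 15 was called in either genotype alone, and 3 were called lower over both genotypes (2.97% of all tested), the 3 named above. Between the genotypes under drought, their median dor minus WT difference was -0.52, and 4 of the 15 were lower in dor without overlap (15.1% of all tested), against differences of -2.03 for PRK, -1.88 for SBPASE and -0.92 for RCA. Whether RCA, SBPASE and PRK differed from the other pathway genes in this was not tested.

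**Figure D3:**
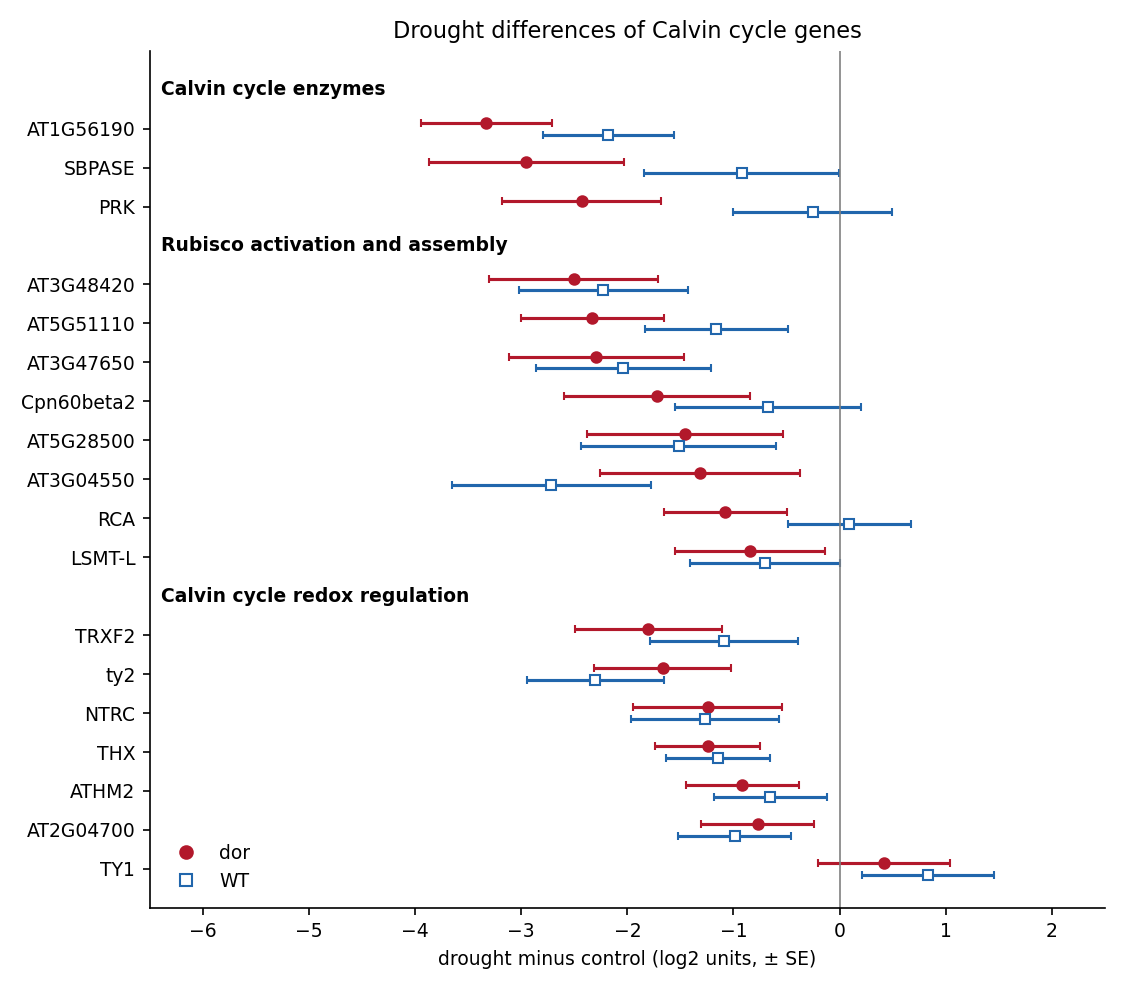
Log2 drought differences in dor and in WT of every tested gene of the 3 pathway lists, RCA, SBPASE and PRK included; circles are dor, squares WT and bars the SE. In dor 14 of the 15 other genes lie below 0, and in WT RCA (0.090) and PRK (-0.25) lie nearer 0 than any other gene shown.

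Photorespiration salvages the product of Rubisco's reaction with oxygen and returns it to the cycle. Of its 19 listed loci 6 were tested, all lower without overlap in dor (median -2.38) and 5 of 6 in WT (median -1.56), where 22.9% of all tested probe sets were in dor and 18.8% in WT. AT1G32470 fell by 4.31 log2 units in dor (SE 0.72, limma adjusted p = 0.0485) and differed by -1.75 in WT (limma adjusted p = 0.492). AT1G11860 differed by -3.92 in dor (limma adjusted p = 0.113) and -1.57 in WT (limma adjusted p = 0.600). The call in dor was lost under 12 of 18 alternatives, among them leaving out any one array but dor control replicate 2 and WT control replicate 2 (-4.92 to -3.48, limma adjusted p of 0.0536 to 0.429). Over both genotypes AT1G32470 fell by 3.03 (limma adjusted p = 0.0309, and 0.261 with the random block), a call lost without any one of dor drought replicate 1 or 2, dor control replicate 1, WT drought replicate 1 and WT control replicate 1 (limma adjusted p of 0.0663 to 0.0869).

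Photosystem and antenna genes, which make the ATP and reductant that the cycle uses, had 7 tested members of 41 listed. All 7 were lower without overlap in dor drought leaves (median -2.08), and 4 of 7 in WT drought leaves (median -0.70), where 22.9% of all tested probe sets were in dor and 18.8% in WT. LHCB4.3, an antenna protein of photosystem II, differed by -3.83 in dor (limma adjusted p = 0.144) and -2.37 in WT, and fell by 3.10 over both genotypes (limma adjusted p = 0.0369, and 0.192 with the random block). The call was also lost without any one of dor drought replicate 1 or 2, dor control replicate 1, WT drought replicate 1 and WT control replicate 1 (-3.30 to -2.60, limma adjusted p of 0.0719 to 0.114). PSBY, a small photosystem II subunit, differed by -2.77 in dor and -0.70 in WT (limma adjusted p = 0.11 and 0.717). Under drought 6 of the 7 were lower in dor than in WT without overlap (15.1% of all tested), with a median difference of -1.13. The summed signal of the 7 was 35778 to 67530 in dor drought, 141940 to 242800 in dor control, 95060 to 130180 in WT drought and 119050 to 220110 in WT control leaves, and its part in the values of RCA, SBPASE and PRK was not tested.

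Other lists had few members with a named probe set. ATSPS4F, a sucrose phosphate synthase, was the 1 tested gene of 12 for export and storage of photosynthate, at -0.66 in dor and 0.70 in WT. Of glycolysis, 2 of 15 loci were tested, GAPC2, a cytosolic GAPDH subunit, at -0.93 in dor and 0.033 in WT, and TPI, a triose phosphate isomerase, at -0.58 in dor and -0.35 in WT. Of 12 senescence loci 2 were tested. SAG29, a sugar transporter that marks ageing leaves, rose by 7.86 log2 units in dor (limma adjusted p = 0.0285), with 8.59 in WT (limma adjusted p = 0.125). It read 17.2 and 10.6 in dor control and 5.5 and 4.5 in WT control leaves, under the 40th percentile of each array. The size of its rise thus depends on low control signals. Over both genotypes it rose by 8.22 (limma adjusted p = 0.00316, and 0.0218 with the random block), a call lost without both control arrays of replicate 1 (8.47, limma adjusted p = 0.0549). The dor call was lost without any one of the 4 dor arrays (7.01 to 8.70, limma adjusted p of 0.0565 to 0.213). WRKY6, a transcription factor of senescence, differed by 1.52 in dor and 0.69 in WT, and the part of leaf ageing in the values of RCA, SBPASE and PRK was not tested.

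Guard cell markers had 3 tested members of 7, with a summed signal of 677 to 696 in dor drought, 2575 to 7810 in dor control, 750 to 954 in WT drought and 3262 to 8365 in WT control leaves. AT1G22690 carried that range. It fell by 7.59 log2 units in dor (limma adjusted p = 0.0205), with -4.95 in WT (limma adjusted p = 0.193). It read 11.6 and 26.2 in dor drought leaves, under the 40th percentile of each array, so the size of the dor fall depends on low signals. Over both genotypes it fell by 6.27 (limma adjusted p = 0.00641, and 0.0928 with the random block). The dor call was lost without dor drought replicate 1 (-7.00, limma adjusted p = 0.213) and without dor control replicate 1 (-6.49, limma adjusted p = 0.11). FMA, a transcription factor of guard cell fate, differed by -0.41 in dor and -0.22 in WT. CHX20, the remaining tested marker, read 418 to 552 over the 8 arrays and differed by -0.17 in dor and 0.10 in WT. PYK10, the 1 tested locus of 7 for root, flower and seed, read 8.3 to 192 and differed by 0.84 in dor and 1.68 in WT. No tested probe set was found for the lists of chloroplast development regulators, epidermis and vascular tissue.

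Genes whose pattern over the 8 arrays was most like the mean centred pattern of RCA, SBPASE and PRK were found by root-mean-square difference among 8456 tested probe sets with 1 named gene. PRK itself lay 0.23 log2 units from that mean pattern, SBPASE 0.46 and RCA 0.52, while a flat line would lie 1.04 away and the median probe set lay 1.30 away. The closest was APS3, an ATP sulfurylase, at 0.17. PSAN, a photosystem I subunit on the lumen side, stood at 0.28, and ATPC1, the gamma subunit of the chloroplast ATP synthase, at 0.29. The drought difference of APS3 was -2.16 in dor and -0.63 in WT, that of PSAN -2.44 in dor and -0.74 in WT, and that of ATPC1 -1.73 in dor and -0.70 in WT, none of them called. AT4G34360 (0.25), AT3G23840 (0.255) and AT2G45340 (0.29) completed the 6, with signals on the dor drought array of replicate 1 of 20.3, 34.1 and 54.9, under the 40th percentile of that array. The 6 were picked for closeness to this pattern, so their likeness to it, with the drought differences given, follows from the choice. RCA, SBPASE and PRK are part of the mean pattern from which their own distances were measured.

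**Figure D4:**
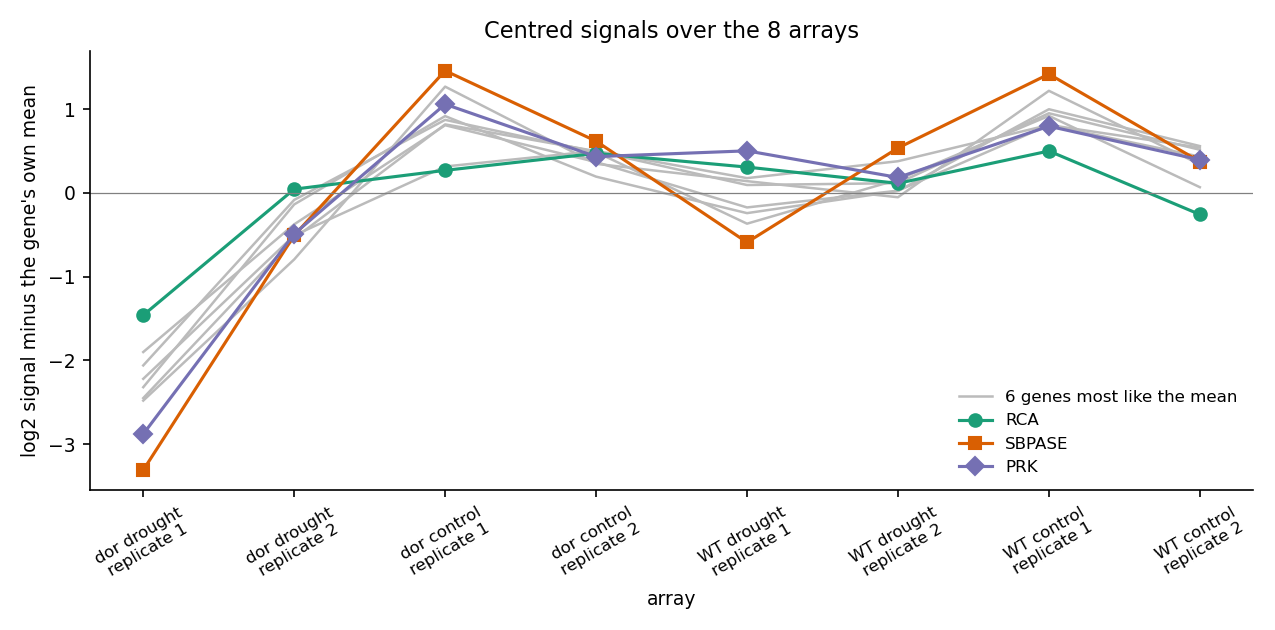
Centred log2 signal over the 8 arrays of RCA, SBPASE and PRK (coloured) and of the 6 genes most like their mean pattern (grey); lines join the arrays of a gene and carry no order. All drop to their lowest on dor drought replicate 1, and the 6 genes lie within 0.17 to 0.29 log2 units (root-mean-square) of the mean pattern of the 3. The 6 were picked for that closeness, so the shared drop follows from the choice.

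Genes beside RCA, SBPASE and PRK in the RefSeq gene order were looked up after the data were seen. LrgB (AT1G32080), a plastid glycolate and glycerate transporter of photorespiration, lies 2 genes from PRK in that order. It gave 378 and 2038 in dor drought leaves, against 10061 and 4272 in dor control leaves, a difference of -2.90 (SE 0.88, limma adjusted p = 0.189). In wild type it gave 1285 and 2672 in WT drought leaves, against 8598 and 4708 in WT control leaves, a difference of -1.78. LrgB was lower without overlap in both genotypes (22.9% of all tested probe sets in dor, 18.8% in WT), whereas PRK overlapped in WT. LrgB is also among the 6 tested photorespiration genes counted above. Of 13 neighbours 9 were tested, with drought differences of -2.90 to 2.70 in dor (3 negative, 6 positive) and -1.78 to 1.24 in WT (5 negative, 4 positive). LrgB was the lowest and AT2G39725, just before RCA, the highest in each genotype.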

How the data were processed

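The deposited intensity values are 1 linear signal per probe set and array, computed by the authors in GCOS by MAS5, per the submitters' processing notes, which give no versions. From these, signals under 1 were set to 1 (399 values) and log2 was taken. A probe set was tested if its signal reached the array's 40th percentile on at least 2 arrays, without the 64 control probe sets. Names came from the platform's probe table and a RefSeq gene table, which gave 13436 probe sets 1 named gene, 503 several genes and 8794 none. The lists kept every named probe set of a gene.

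Tests were two-sided and moderated, from limma 3.58.1 (R 4.3.3; eBayes, trend on). Their p-values were adjusted over all 15523 probe sets by Benjamini-Hochberg and called under 0.05. The model of the 4 groups had 4 residual degrees of freedom and an additive model of condition and genotype had 5. The 95% intervals are not adjusted. P-values measure the spread between 2 arrays a group, and this number limits precision. The script was tested on simulated data. Alternatives were quantile normalization, median centring, an offset, other filters, no trend, blocks for replicate number, extraction wording and condition with replicate number, fewer arrays, and each array left out. Figures used matplotlib 3.10.9 in Python 3.11.15.

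The 13 gene lists, written by locus, the rule for named genes (all tested genes of the 3 pathway lists, up to 2 with the largest dor difference of each other list, and the 6 most similar genes) and the 3 genes themselves were chosen with earlier results of these data known. Coordinates are not printed, as no build is named.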

Additional observations from a re-analysis of the deposited data

How the results depend on the processing

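RCA, SBPASE and PRK passed the threshold in none of the comparisons under any alternative run, and kept their direction for drought in dor, drought over both genotypes, dor against WT under drought and the difference of responses. Directions turned for RCA in WT drought (-0.072 with median centring, -0.29 to 0.47 leaving out 1 array) and, leaving out 1 array, for dor against WT under control watering in RCA (-0.13 to 0.63), PRK (-0.16 to 0.46) and SBPASE (-0.38 to 0.67). Among other named genes, leaving out 1 array turned Cpn60beta2 in WT (-1.65 to 0.30), ATSPS4F in dor (-2.07 to 0.76) and WT (-0.13 to 1.53), GAPC2 in WT (-0.24 to 0.31, and -0.13 with median centring), FMA in dor (-0.96 to 0.14) and WT (-1.04 to 0.60) and PYK10 in dor (-1.43 to 3.10). Probe sets called for drought in dor (88) numbered 153 with quantile normalization, 35 with the extraction wording as a block, 0 without both control arrays of replicate 1 and 0 to 108 leaving out 1 array, with 0 without dor drought replicate 1 and 5 without dor control replicate 1. For drought in WT (1) they numbered 3 with quantile normalization or only the 4 arrays compared, 0 with median centring, no trend, the extraction block or without both controls of replicate 1, and 0 to 6 leaving out 1 array. Over both genotypes (902) they numbered 12 with the random block or without both controls of replicate 1, 387 with the extraction block, 1682 with the replicate block and 171 to 1543 leaving out 1 array. Without both control arrays of replicate 1, all 7 named genes called over both genotypes lost their call (limma adjusted p of 0.0549 to 0.261). Some named genes gained a call. Over both genotypes AT3G47650 did under 6 of 18 alternatives, THX under 2 and AT5G51110 under 1, which left out an array. For drought in dor AT1G56190 did under 1 of 18, quantile normalization, and AT1G11860 under 1, which left out an array. The causes were not tested. The replicate block left PRK at -2.43 (limma adjusted p = 0.162) and SBPASE at -2.95 (limma adjusted p = 0.164) for drought in dor, with 96 calls. Deviations of same-numbered arrays correlated at 0.40 between the drought groups and 0.59 between the control groups. Between conditions within a genotype they correlated at -0.036 and 0.048, so the numbers were not taken as pairs for drought. The dor against WT comparisons within a regime also took the arrays as independent, although those groups deviated together. The random block was run only for drought over both genotypes, so its effect on the dor against WT results was not tested. Leaving out arrays that reduce a group to 1 assumes that array varies like the others.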
